A study of Rattus norvegicus with 10 samples.

Results

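The axon guidance ligands and receptors were taken as every gene whose symbol belongs to the semaphorin, ephrin, Slit, plexin, neuropilin, Eph receptor or Robo families, by a pattern on the symbol. This rule found 59 of the 25399 features counted in nuclei. The ligands were 20 semaphorins, 8 ephrins and 3 Slits, and the receptors were 9 plexins, 2 neuropilins, 13 Eph receptors and 4 Robos. In bulk RNA 58 of the 59 were present among 14166 genes, and Epha1 was not. The tissue was the dentate gyrus of the injured side, taken 3 weeks after lateral fluid percussion injury, a model of traumatic brain injury (TBI), in male Sprague Dawley rats of approximately 8 to 15 weeks. TBI rats had a craniectomy over the right parietal cortex under isoflurane and received a single dose of buprenorphine as analgesic. After 3 days they were put under isoflurane again. A moderate pulse of fluid onto the intact dura followed when a toe pinch first drew a response. Sham rats had the same surgery without the pulse, and the naïve rat had no surgery. Bulk polyA RNA was sequenced from 3 sham and 3 TBI rats, and single nuclei from 2 TBI rats, 1 sham rat and 1 naïve rat, the sham and the naïve rat being joined as controls. Only males and only the injured side were studied, and within the nucleus controls surgery and rat cannot be told apart.

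These families steer growing axons and, in the adult brain, act at synapses, in glia and in vessels. Semaphorins signal through plexins, and the secreted class 3 semaphorins mostly need a neuropilin as the ligand-binding partner of the plexin. Ephrins are membrane-bound and bind Eph receptor tyrosine kinases on neighbouring cells with signalling in both directions, while secreted Slits repel axons through Robo receptors. In the dentate gyrus they are known for placing the mossy fibres that granule neurons send to the hilus and CA3, and for the sorting of entorhinal input.

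Bulk libraries held 25121893 to 44649404 estimated transcript counts. The microglia marker list summed to 207 to 251 counts per 1000000 (CPM) in sham and 363 to 662 in TBI, and the astrocyte list to 4460 to 5351 in sham and 7251 to 10276 in TBI, so neither list overlapped between groups. Pairs of nucleus libraries shared 45 to 60 cell barcodes. Of 55863 barcodes, 55124 passed the filters on depth and quality, and all but 16037 of these (29.1%) were put in 10 classes from marker genes, none of which is a member. Each class had 2 to 6 of its own markers among its 10 genes of highest fold, and Ttr, a gene known from choroid plexus, led the astrocyte-like class. Vtn, a marker of the pericyte list, led the endothelial-like class. In that class the pericyte list summed to 44.3% and the astrocyte list to 26.8% of the level in their own classes. Granule neuron markers were also counted in every other class, with sums at 21.2% of their granule-like level in other glutamatergic-like nuclei and at 53.9% in microglia-like nuclei. Single markers reached 137% (Trpc6) in microglia-like and 1784% (Dsp) in endothelial-like nuclei, so the list is not specific to granule neuron RNA.

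The first question was which members differed between injured and sham dentate gyrus as a whole. None of the 58 members passed a false discovery rate (FDR) of 0.05 by edgeR's quasi-likelihood test, where 0 of 14166 genes did (0%). At an unadjusted p under 0.05 stood 7 members, 5 of them higher in TBI (Efnb2, Plxnb2, Sema3b, Sema3d and Ephb4) and 2 lower (Epha4 and Epha10), against a background of 9.60% of all genes. Of all genes, 8.20% were at that p and higher in TBI, and 1.40% were at that p and lower. DESeq2 on the same counts called 2 members at an FDR of 0.05, Efnb2 and Plxnb2, where it called 2.46% of all genes. The median log2 fold change (log2FC, TBI over sham) was -0.09 over the members and 0.00 over all genes. Of the members 21 were higher and 37 lower, and of all genes 6995 were higher and 7171 lower. The 7 became 3 (Efnb2, Plxnb2 and Sema3d) with the period of surgery as a covariate, where 6.40% of all genes stood at that p. The period was set here from the date of injury or sham procedure, as before July or later. The earlier period held sham replicates 1 and 2 and TBI replicate 1, so it was not balanced with injury. The 7 became 3 without TBI replicate 3 (6.20% of all genes) and 4 without sham replicate 3 (6.14%). In bulk tissue fewer cells of a type and less RNA per cell cannot be told apart.

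Among the ligands, Efnb2 encodes ephrin-B2, a transmembrane ephrin known from arterial endothelium and from synapses. It stood at 19.97, 16.5 and 19.5 CPM in the sham libraries and at 26.2, 27.4 and 33.95 CPM in the TBI libraries. The lowest TBI value exceeded the highest sham value, which held for 10.2% of all genes. The log2FC was 0.65 ± 0.14 (estimate ± standard error throughout), and FDR = 0.204 by edgeR and FDR = 0.0216 by DESeq2. With each library left out in turn its log2FC ranged from 0.52 to 0.72. The other 7 ephrins included 5 with a higher and 2 with a lower mean estimate in TBI, none at an unadjusted p under 0.05. Efnb3, an ephrin known from neurons, spread from 76.7 to 199.8 CPM in sham and from 97.1 to 189 CPM in TBI, so that its groups overlapped over most of their range.

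Of the 20 semaphorins, 8 had a higher and 12 a lower estimate in TBI, with a median log2FC of -0.04. Sema3b, a secreted class 3 semaphorin, was at 6.39, 10.8 and 7.53 CPM in sham and at 9.76, 18.6 and 22.9 CPM in TBI. Its lowest TBI library lay below its highest sham library, and the log2FC was 1.05 ± 0.33 (FDR = 0.341 by edgeR). Sema3d, another secreted class 3 semaphorin, was at 4.95, 7.498 and 5.04 CPM in sham and at 8.76, 9.98 and 8.35 CPM in TBI. For Sema3d the 3 TBI libraries lay above the 3 sham libraries, with a log2FC of 0.63 ± 0.21 (FDR = 0.370 by edgeR). Sema3a, a ligand of neuropilin-1 and the semaphorin with the largest log2FC among those of at least 1 CPM, was at 0.647, 0.783 and 0.303 CPM in sham and at 1.25, 0.650 and 2.39 CPM in TBI. Its groups overlapped, the log2FC of 1.32 had a standard error of 0.62, and without TBI replicate 3 it was 0.72. Sema7a, a membrane-anchored semaphorin that binds plexin C1, had the highest CPM of the family and overlapped between sham (151 to 192 CPM) and TBI (107 to 179 CPM).

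All 3 Slits had lower estimates in TBI, with log2FC from -0.20 to -0.12, and none was at an unadjusted p under 0.05. Slit1, at 187, 219 and 267 CPM in sham, was at 192, 220.4 and 172 CPM in TBI, an overlap of the groups. Slit3 was tighter, from 72.6 to 74.3 CPM in sham and from 63.7 to 72.6 CPM in TBI. Its TBI libraries lay below its sham libraries, as 4.84% of all genes did, though the closest pair was equal at 72.6 CPM after rounding (FDR = 0.746 by edgeR).

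Among the receptors, Plxnb2 encodes plexin B2, a receptor of class 4 semaphorins. It was at 71.8, 85.2 and 61.7 CPM in sham and at 95.9, 121 and 116 CPM in TBI. All TBI libraries were above all sham libraries, the log2FC was 0.61 ± 0.15, and FDR = 0.238 by edgeR and FDR = 0.0286 by DESeq2. None of the other 8 plexins was at an unadjusted p under 0.05. Plxna1, the plexin with the highest CPM, was at 134 to 203 CPM in sham and at 122 to 178 CPM in TBI, and both neuropilins had lower estimates (Nrp1 with a log2FC of -0.20 and Nrp2 with -0.03) with overlapping groups.

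Of 12 Eph receptors 10 had lower estimates in TBI, with a median log2FC of -0.22, while 7171 of all 14166 genes had lower estimates. With a library left out, the log2FC reached 0.26 for Epha8, 0.20 for Ephb1, 0.14 for Epha7 and 0.02 for Ephb3. It stayed below 0 for Epha3, Epha4, Epha5, Epha10, Ephb2 and Ephb6. Epha4, which binds both classes of ephrin and had the highest CPM of the family, was at 379.8, 442 and 423 CPM in sham and at 336, 365.5 and 247 CPM in TBI. All TBI libraries were below all sham libraries, TBI replicate 3 the most, and the log2FC was -0.39 ± 0.16 (FDR = 0.482 by edgeR). Without TBI replicate 3 it was -0.24 and no longer at an unadjusted p under 0.05. Epha10, an Eph receptor without kinase activity, was at 10.8, 10.1 and 9.35 CPM in sham and at 7.71, 8.06 and 7.31 CPM in TBI. These groups did not overlap either, with a log2FC of -0.39 ± 0.14 (FDR = 0.415 by edgeR). Ephb4, the receptor of ephrin-B2 known from veins, was at 3.77, 5.60 and 4.57 CPM in sham and at 6.59, 5.39 and 11.502 CPM in TBI. TBI replicate 3 stood far above the rest, and the log2FC of 0.75 (FDR = 0.513 by edgeR) was 0.37 without that library. Robo4, the Robo known from endothelium and the one with the largest log2FC of its family, was at 5.06, 4.63 and 4.198 CPM in sham and at 6.39, 4.39 and 8.70 CPM in TBI, with overlapping groups and a log2FC of 0.49 that was 0.22 without TBI replicate 3. Robo2, the Robo with the highest CPM, was at 106 to 118 CPM in sham and at 82.0 to 107 CPM in TBI, with a log2FC of -0.22.

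**Figure D1:**
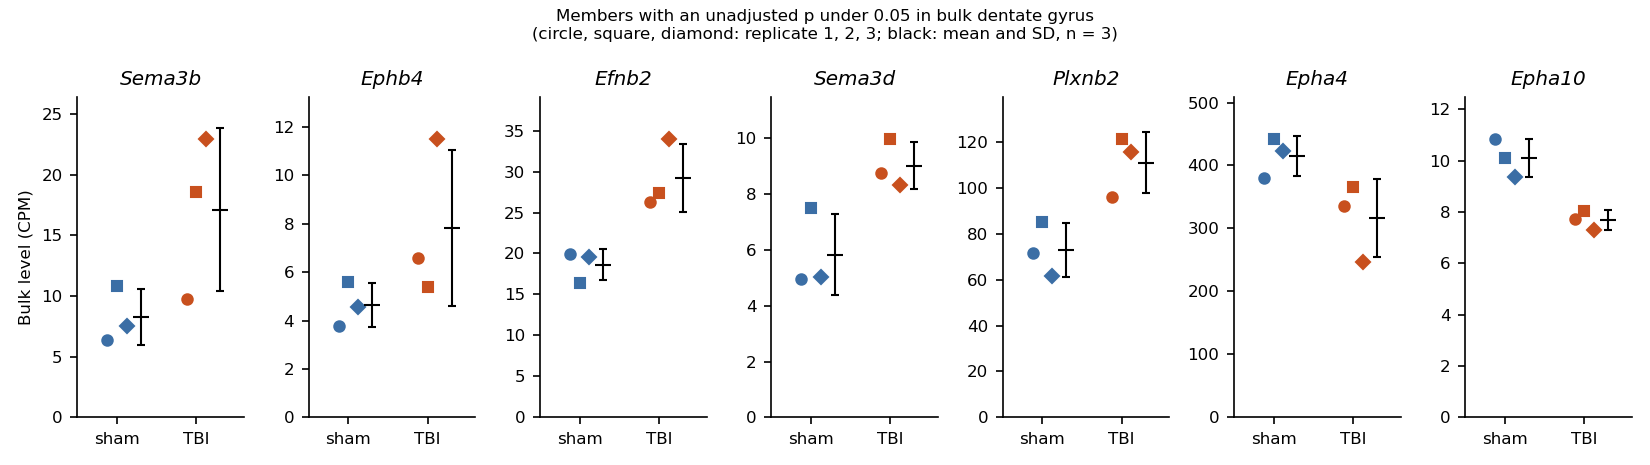
Level in CPM (vertical axis, from 0) of the 7 members at an unadjusted p under 0.05 in the 3 sham and 3 TBI bulk libraries, with the mean and SD in black. Efnb2, Plxnb2 and Sema3d have all TBI libraries above all sham libraries, Epha4 and Epha10 have them below, and Sema3b and Ephb4 overlap.

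**Figure D2:**
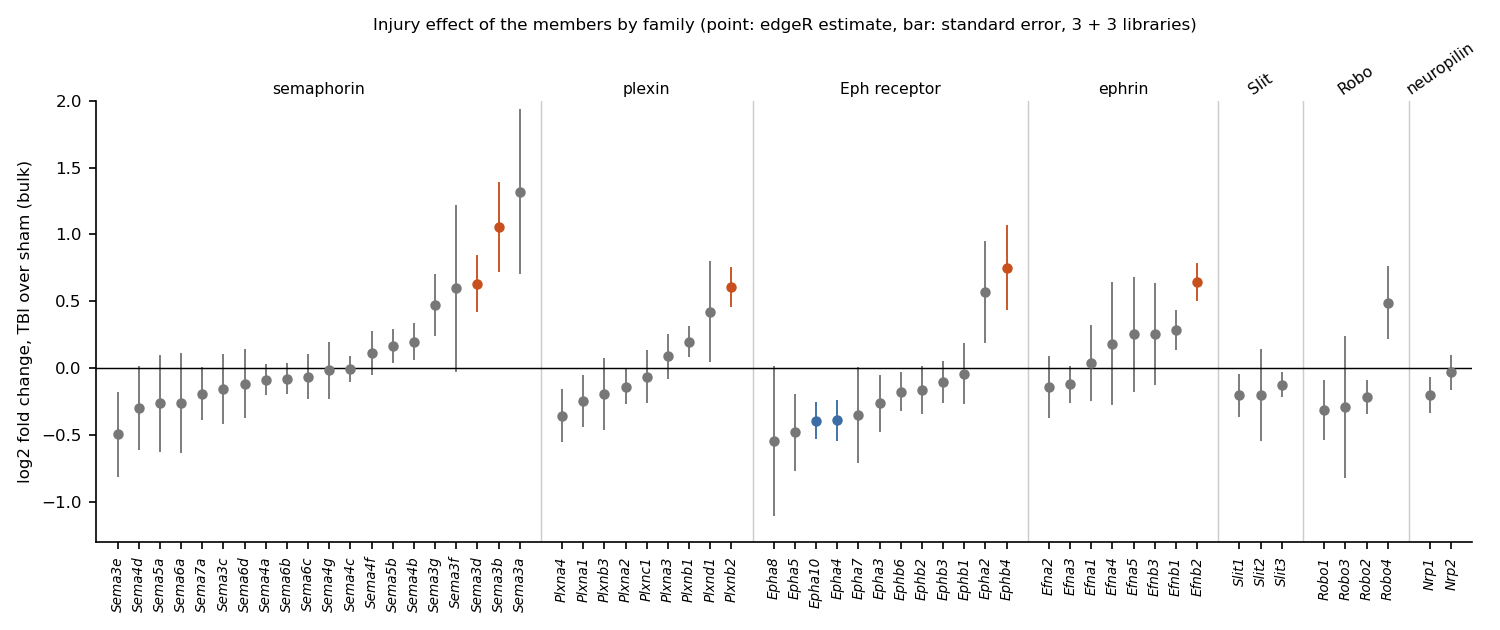
Log2FC of the 58 members in bulk (vertical axis), by family, as edgeR estimates with standard errors. Members at an unadjusted p under 0.05 are orange where higher and blue where lower in TBI. Of 12 Eph receptors 10 lie below 0, as do 7171 of all 14166 genes.

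Promoters are shown for the 7 members at an unadjusted p under 0.05 in bulk, none of which passed an FDR of 0.05 by edgeR. RefSeq promoters (build GRCr8, which is not the build of the files) were found for 48 of the 59 members and for 5 of these 7. The 250 bases before the start of the gene were searched on both strands for the GC box GGGCGG, the ETS core CCGGAA, the STAT-type motif TTCNNNGAA and the AP-1-type motif TGANTCA, and capitals mark the matches. The GC box was held by 30.5% of all promoters, the ETS core by 12.6%, the STAT type by 7.67% and the AP-1 type by 6.34%. Among the 48 member promoters, 25 held the GC box, 3 the ETS core, 2 the STAT type and 1 the AP-1 type. Plxnb2 held 4 GC box matches and Ephb4 held 3, Sema3d held 1 ETS core, Epha10 held 1 AP-1-type match, and Efnb2 held none of the 4 motifs. The sequences read 5′ to 3′ on the strand of the gene, at chr16:87484965-87485214 (+) for Efnb2, chr7:122137949-122138198 (-) for Plxnb2, chr4:23460972-23461221 (-) for Sema3d, chr12:24988389-24988638 (-) for Ephb4 and chr5:142424046-142424295 (+) for Epha10.
Efnb2: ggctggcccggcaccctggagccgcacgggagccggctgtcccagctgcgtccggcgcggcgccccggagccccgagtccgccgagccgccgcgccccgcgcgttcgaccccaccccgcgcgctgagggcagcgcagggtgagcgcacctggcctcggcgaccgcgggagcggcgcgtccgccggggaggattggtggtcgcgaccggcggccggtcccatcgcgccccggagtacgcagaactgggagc
Plxnb2: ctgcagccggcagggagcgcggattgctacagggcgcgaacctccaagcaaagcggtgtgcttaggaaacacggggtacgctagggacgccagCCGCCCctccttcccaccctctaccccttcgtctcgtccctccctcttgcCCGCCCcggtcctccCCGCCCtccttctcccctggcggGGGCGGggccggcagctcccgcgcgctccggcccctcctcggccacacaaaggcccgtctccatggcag
Sema3d: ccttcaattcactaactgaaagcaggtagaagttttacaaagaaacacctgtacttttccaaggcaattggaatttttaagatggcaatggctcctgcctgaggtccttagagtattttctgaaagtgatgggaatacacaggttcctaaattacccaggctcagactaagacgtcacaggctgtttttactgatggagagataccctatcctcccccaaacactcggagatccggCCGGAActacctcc
Ephb4: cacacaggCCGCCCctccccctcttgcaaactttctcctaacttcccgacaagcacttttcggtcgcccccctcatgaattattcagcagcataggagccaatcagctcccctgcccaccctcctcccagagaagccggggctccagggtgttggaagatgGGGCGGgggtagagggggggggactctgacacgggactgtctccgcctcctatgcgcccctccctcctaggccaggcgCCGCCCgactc
Epha10: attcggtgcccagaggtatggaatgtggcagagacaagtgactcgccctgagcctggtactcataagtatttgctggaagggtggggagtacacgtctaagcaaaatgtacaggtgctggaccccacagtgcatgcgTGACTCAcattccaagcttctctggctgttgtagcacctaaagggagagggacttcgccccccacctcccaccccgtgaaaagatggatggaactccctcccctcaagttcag
GC content ran from 44.8% in the Sema3d promoter to 80.4% in that of Efnb2, against a median of 51.2% over all promoters.

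Each member also had a class of nuclei in which its level was highest, and the bulk values were read by that class. The class levels come from other rats than the bulk libraries. Of the 10 members with their highest mean level in endothelial-like nuclei, 4 had this class highest in every rat. In bulk TBI 7 of the 10 had a higher estimate, with a median log2FC of 0.45. Of all 14166 genes, 6995 had a higher estimate. TBI replicate 3 stood highest. Relative to its own mean over the 6 libraries, the median of these 10 members was 1.42 in TBI replicate 3, 1.08 and 0.947 in the other TBI libraries and 0.809 to 0.881 in sham. The endothelial marker list summed to 561 CPM in TBI replicate 3, to 337 and 380 in the other TBI libraries and to 325 to 376 CPM in sham, and the pericyte list to 393.4 CPM in TBI replicate 3, to 173 and 185 CPM in the other TBI libraries and to 138 to 167 CPM in sham. The pericyte list thus did not overlap between groups, with 10 of 10 markers higher in TBI and 7 at an unadjusted p under 0.05. Sema3g, a class 3 semaphorin known from arteries, was at 14.8, 13.6 and 14.7 CPM in sham and at 18.2, 14.3 and 27.4 CPM in TBI, and Epha2 was at 4.54 CPM in TBI replicate 3 against 1.82 to 2.45 CPM elsewhere (both named after their values were seen). The part of the vascular cell share in these members was not tested.

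Other glutamatergic-like nuclei, the class of mossy and pyramidal type markers, had the highest mean level of 10 members, for 7 of them in every rat. Slit1 was at 587 CPM there and at 584 CPM in granule-like nuclei, and highest there in 2 of 4 rats. All 10 had lower estimates in bulk TBI, with a median log2FC of -0.20 and none at an unadjusted p under 0.05. Of all 14166 genes, 7171 had lower estimates. The marker list of that class was at 669 to 1061 CPM in sham and at 626 to 896 CPM in TBI, an overlap. Of the 9 members highest in granule-like nuclei, 5 of them in every rat, 8 had lower estimates, with a median of -0.29. Here sham replicate 1 stood apart: granule markers summed to 1116 CPM in it and to 359 and 384 CPM in the other sham libraries, and TBI replicate 1 had 769.8 CPM against 362 and 566 CPM in the other TBI libraries. Epha8 was at 81.5 CPM in sham replicate 1 and 49.1 CPM in TBI replicate 1 against 18.3 to 29.1 CPM in the other 4. Robo3 was at 45.6 CPM in sham replicate 1 against 9.91 to 23.2 CPM in the rest. With each member taken relative to its mean, the median of the 9 was 1.23 in sham replicate 1 and 0.738 to 1.07 elsewhere. Efna3, Epha4 and Slit3 were not highest in sham replicate 1. Epha4 was at 379.8 CPM there and at 442 and 423 CPM in the other sham libraries. Sham replicate 2 held 17796 CPM of oligodendrocyte markers against 5123 to 8060 CPM in the other 5 libraries. Sema4d, the ligand of plexin B1 known from oligodendrocytes, was at 111 CPM in sham replicate 2 and at 48.4 to 66.1 CPM in the others, and Plxnb3, the plexin known from oligodendrocytes, at 109.7 CPM against 55.8 to 75.8 CPM. Both Sema4d and Plxnb3 were highest in committed oligodendrocyte precursor-like nuclei. Of the 2 members highest in oligodendrocyte-like nuclei, Efna1 was highest in sham replicate 2 (6.38 CPM) and Efna2 was not (3.88 CPM). The genes of this paragraph were named after their values were seen, and what the dissection of each rat contributed was not tested.

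**Figure D3:**
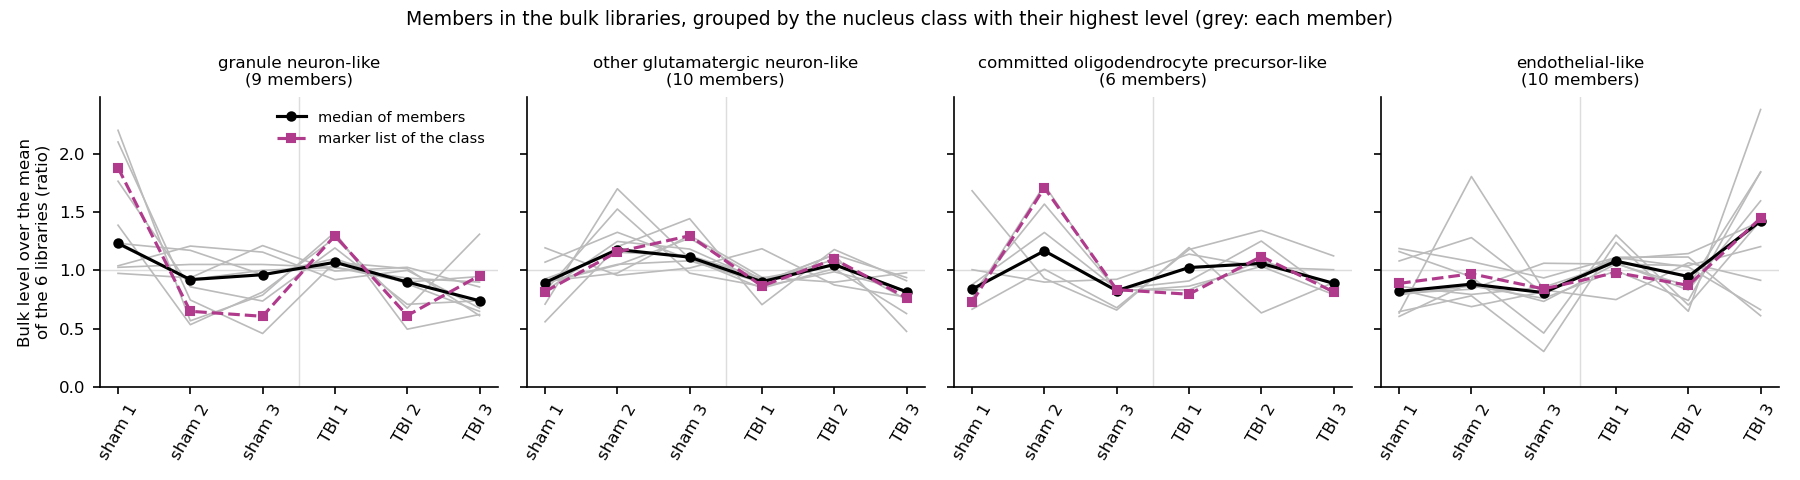
Bulk level of each member over its mean of the 6 libraries (vertical axis, ratio; grey lines), for members grouped by the nucleus class with their highest level, with the group median in black and the marker list of the class in purple. The endothelial-like group and its markers both peak in TBI replicate 3, and the granule-like markers peak in sham replicate 1.

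The second question was which cells carry each member. Levels are given as CPM of the UMIs (unique molecular identifiers, single RNA molecules counted) of a class in each rat. UMIs were counted over exons and introns and so grow with the length of a gene, and a level is therefore compared between classes for one gene, not between genes. Of the 59 members, 58 had a UMI, and Robo4 had 0 among the 128681321 UMIs of all nuclei, which allows up to 0.0233 CPM by counting error alone. Bulk RNA held Robo4 at 4.198 to 8.70 CPM, and why no UMI was assigned to it in nuclei is not known, so the zero is not read as its level. The class with the highest mean level was the same in all 4 rats for 33 of the 58, and for 22 the lowest rat of that class was above the highest rat of the next class. The classes were set from markers and these levels are a description with no test.

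In granule-like nuclei the most UMIs among the members came from Plxna4, Epha7 and Sema5a. Plxna4, a partner of both neuropilins, was at 2055 and 2450 CPM after TBI and at 2084 (sham) and 1866 CPM (naïve) in controls, and lay above its level in other glutamatergic-like nuclei (a mean of 1552 CPM) in every rat. Robo3, a Robo known from commissural axons, had the highest ratio of its granule-like level over the mean of the other classes, 3.03. It was at 75.6 and 154 CPM after TBI and at 146 (sham) and 83.8 CPM (naïve) in controls, so rats of one group differed more than the groups did. Epha7 was above every other class in each rat as well, at 957 to 1739 CPM.

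Other glutamatergic-like nuclei had the highest levels of Slit2, Robo1 and Sema3e in every rat, and of Epha5 in 3 of 4 rats. Slit2 was at 1470 and 1497 CPM after TBI and at 1277 (sham) and 1705 CPM (naïve) in controls, 6.12 times the mean of the other classes and well above the granule-like mean of 297 CPM. Its receptor Robo1 was at 868 to 1556 CPM in this class and at a mean of 104 CPM in granule-like nuclei, and Sema3e, the ligand of plexin D1, was at 306 to 481 CPM against 32.2 CPM. Both neuropilins were highest here too, Nrp1 at a mean of 954 CPM and Nrp2 at 498 CPM. In GABAergic-like nuclei Robo2 was at 1245 to 1538 CPM, Epha10 at 77.9 to 91.8 CPM and Sema6c at 13.8 to 26.2 CPM, and each was above the next class in every rat. Sema6c, a transmembrane semaphorin, had the highest ratio to the other classes, 6.93. Plxna4 and Epha5 also had many UMIs in this class, and for Plxna4 the mean of 861 CPM was 40.7% of the granule-like level.

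The oligodendrocyte lineage carried a plexin, an Eph receptor and several semaphorins. Plxnb3 was at 298 and 320 CPM in committed oligodendrocyte precursor-like (COP-like) nuclei of the TBI rats and at 259.6 (sham) and 282 CPM (naïve) in controls, against a mean of 51.7 CPM in oligodendrocyte-like and 0.693 CPM in granule-like nuclei. Ephb1, an EphB receptor, was at 688 to 968 CPM in COP-like nuclei, above astrocyte-like nuclei (332 CPM) and far above granule-like nuclei (16.7 CPM). Sema5b was at 234 CPM on average in COP-like and at 106 in oligodendrocyte precursor-like (OPC-like) nuclei, and Sema5a at 1973 and 947 CPM. Sema3d, which had a higher estimate in bulk TBI (FDR = 0.370 by edgeR), was carried by both precursor classes. It was at 252 CPM in OPC-like and 281 CPM in COP-like nuclei, with 18.3 CPM or less in every other class. The rats spread from 160 to 383 CPM in OPC-like nuclei, lowest in a TBI rat and highest in the naïve rat. In oligodendrocyte-like nuclei Sema4d was at 163 to 185 CPM, below its COP-like level of 296 CPM, and Efna1, the member with the highest ratio there, rested on 52 UMIs.

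In astrocyte-like nuclei Sema4b, Plxnb1, Ephb3 and Ephb1 stood above their granule-like level in every rat. Sema4b, a transmembrane semaphorin, was at 72.6 and 76.9 CPM after TBI and at 97.7 (sham) and 91.1 CPM (naïve) in controls, against 14.0 CPM in granule-like nuclei. Sema3b, whose ratio to the other classes was highest, had only 22 UMIs there. Microglia-like nuclei had the highest level of Plxnb2, at 69.5 and 61.4 CPM after TBI and at 41.3 (sham) and 68.9 CPM (naïve) in controls, followed by astrocyte-like nuclei at 39.4 CPM. Sema4c, a ligand of plexin B2, was also highest there, with rats from 35.3 to 170 CPM. Neither gene kept this class with a minimum of 1000 UMIs per nucleus. Plxnb2 was then highest in astrocyte-like nuclei (39.6 CPM). Sema4c was then at 69.9 CPM in COP-like and 58.6 CPM in microglia-like nuclei. In endothelial-like nuclei, Plxnd1, Ephb4 and Sema3g were 15.5, 15.4 and 24.9 times the mean of the other classes, at means of 73.9, 39.7 and 22.5 CPM. Efnb2 was highest in the same class, at 56.8 to 77.7 CPM, but was also at 54.5 CPM in GABAergic-like and at 41.2 CPM in microglia-like nuclei. Epha2 had the highest ratio of all in this class, 27.0, on 11 UMIs. Many UMIs of Plxna4 were also counted in glia-like nuclei, at 46.0% of the granule-like level in astrocyte-like and at 53.0% in microglia-like nuclei. The summed granule markers stood at 43.1% (single markers 29.5% to 57.0%) and 53.9% (39.6% to 137%) in the same nuclei. Plxna4 lay within the range of single markers in both classes, and its level there is not read as expression by these cells. Of the 59 members, 20 were at or below the percentage of the summed markers in endothelial-like, 12 in microglia-like, 11 in oligodendrocyte-like and 3 in astrocyte-like nuclei. The sum in endothelial-like nuclei includes Dsp, at 1784% of its granule-like level.

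**Figure D4:**
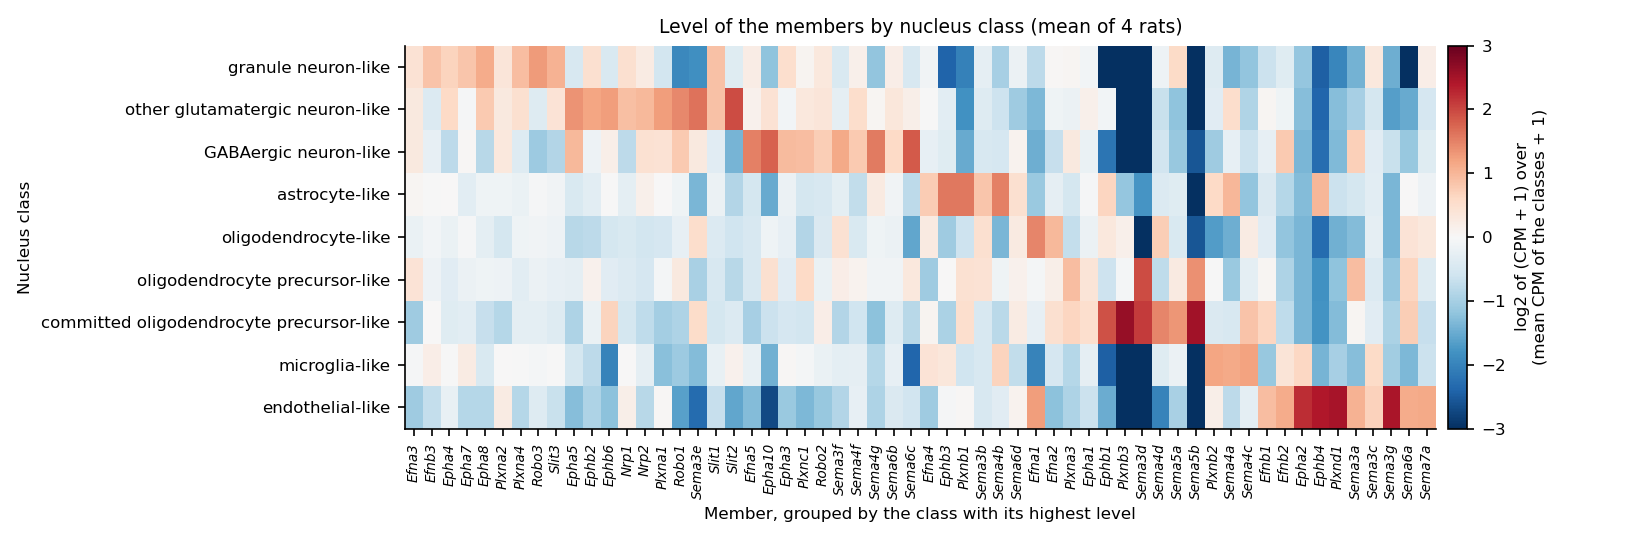
Level of 58 members (columns) in 9 nucleus classes (rows) as the log2 ratio of CPM + 1 over the mean of the classes + 1, from the mean of 4 rats. Red blocks mark Plxnb3, Sema3d, Sema5b and Ephb1 in COP-like nuclei, Plxnd1, Ephb4 and Sema3g in endothelial-like nuclei and Slit2 in other glutamatergic-like nuclei.

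The third question was whether injury changed the members within a class. The UMI sums of 2 TBI rats and 2 control rats were compared by edgeR's quasi-likelihood test in the 9 classes with at least 40 nuclei in each rat. From 25 members in COP-like to 50 in granule-like nuclei passed the filter on low counts. None passed an FDR of 0.05 in any class, nor did any other gene (0%), and of 355 tests of a member in a class 25 were at an unadjusted p under 0.05, 23 higher and 2 lower in TBI, against 3.73% of all such tests of a gene. Without the sham rat the number was 71, against 8.26% of all such tests, and the lone control is then assumed to vary like the TBI rats. DESeq2 called 4 members, all in astrocyte-like nuclei, where it called 1.69% of all genes, and it called no member in oligodendrocyte-like nuclei (0.0107% of all genes), over all nuclei (0.0376%) or in the other 7 classes (0%).

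Astrocyte-like nuclei had 11 of the 25, of 47 members tested, 10 higher and 1 lower, against 12.8% of all genes in that class (7.23% higher and 5.61% lower), and 7 without TBI replicate 2 (8.12% of all genes). Slit1, whose mean level was 584 CPM in granule-like and 587 CPM in other glutamatergic-like nuclei, was at 362 and 407 CPM in astrocyte-like nuclei of the TBI rats and at 174 CPM in both controls. Its log2FC was 1.08 ± 0.14 (FDR = 0.1503 by edgeR and FDR = 3.03e-05 by DESeq2). Ephb2, an EphB receptor of neurons, was at 104 and 140.4 CPM after TBI and at 52.6 (sham) and 45.7 CPM (naïve) in controls, with a log2FC of 1.25 ± 0.20 (FDR = 0.1503 by edgeR). Efnb3 was at 74.1 and 59.1 CPM after TBI and at 33.0 (sham) and 21.4 CPM (naïve) in controls, with a log2FC of 1.24. Both TBI rats were above both controls for each of the 3 genes. These genes were picked for their p in the same rats, and the share of all genes with this order was not counted. Plxna4, Slit3, Sema4d, Sema6b, Sema7a, Plxna1 and Plxna3 were the other members with higher levels, with log2FC from 0.54 for Sema4d to 1.16 for Sema6b, which was 0.67 without the naïve rat and 1.79 without the sham rat. Sema4b, a member above its granule-like level in these nuclei, was the only one lower, with a log2FC of -0.40 ± 0.16 (FDR = 0.350 by edgeR).

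Granule markers moved with these members. In astrocyte-like nuclei they summed to 3711 and 3587 CPM after TBI and to 2913 (sham) and 2563 CPM (naïve) in controls. Of 9 granule markers tested in this class 8 were higher in TBI, 5 at an unadjusted p under 0.05, with a median log2FC of 0.48. Of the 10 members with higher levels, 9 were at or below their granule-like level, and Plxna1 was at 150% of it. Counted per 1000 granule marker UMIs of the same nuclei, 7 of the 10 had both TBI rats above both controls (Efnb3, Ephb2, Plxna1, Plxna4, Sema6b, Slit1 and Slit3) and 3 overlapped, and Sema4b had both TBI rats below. Of all genes tested in this class, 6.20% had both above and 53.0% both below on that scale. The 10 were picked for their higher level in the same rats, so this count is a description. On that scale Slit1 was at 97.6 and 113 after TBI and at 59.7 (sham) and 68.0 (naïve) in controls. The part of granule neuron RNA in these differences was not tested further.

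**Figure D5:**
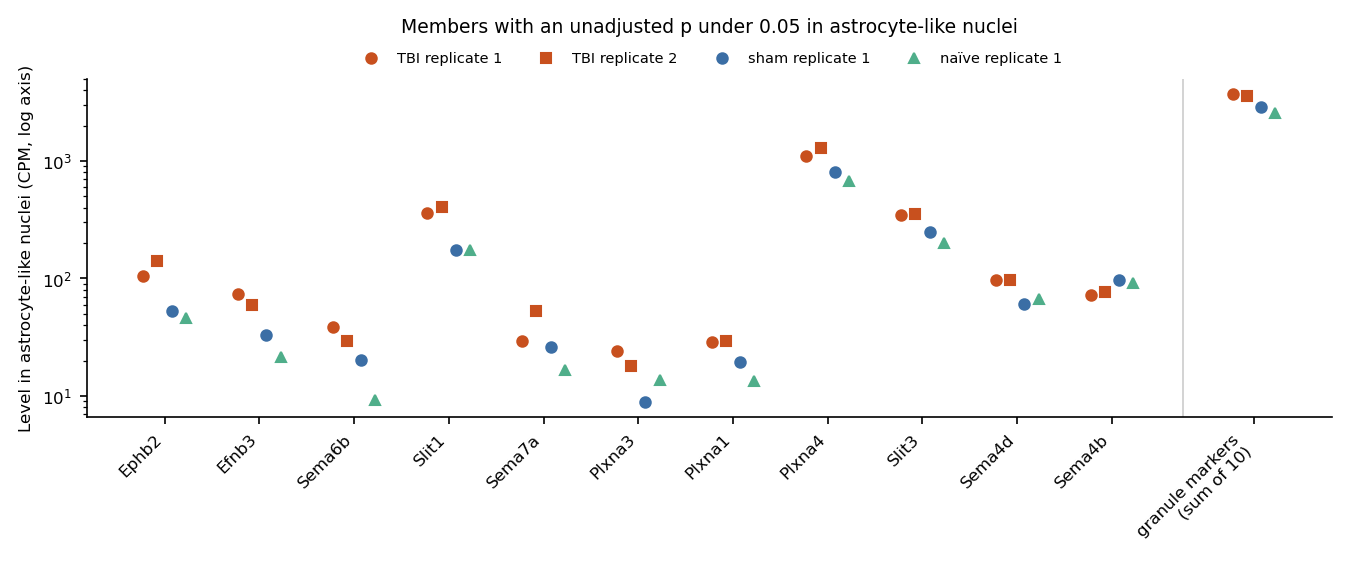
Level in astrocyte-like nuclei of each rat (vertical axis, CPM on a log scale) of the 11 members at an unadjusted p under 0.05, with the sum of the 10 granule markers at the right. Both TBI rats lie above both controls for 10 members and for the granule markers, and below them for Sema4b. The members were picked for their p in these rats, and the share of all genes with either order was not counted.

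Slit1 had both TBI rats above both controls in 8 of the 9 classes. The classes come from the same 4 rats, so these are not separate observations. The share of all genes with this order was not counted by class. In granule-like nuclei Slit1 was at 648 and 672 CPM after TBI and at 496 (sham) and 518 CPM (naïve) in controls, a log2FC of 0.34 ± 0.14 (FDR = 1.0 by edgeR). The log2FC was 0.65 in OPC-like, 0.95 in COP-like and 1.11 in endothelial-like nuclei, each at an unadjusted p under 0.05 (FDR = 0.999, 0.807 and 1.0 by edgeR), and 0.08 in GABAergic-like nuclei, where the rats overlapped. It was 0.41 in OPC-like nuclei without the naïve rat and 1.66 in endothelial-like nuclei without the sham rat. Over all nuclei the log2FC was 0.29 ± 0.12 (FDR = 0.982 by edgeR), while bulk gave -0.20. The estimated injury effect on Slit1 was greater in astrocyte-like than in granule-like nuclei by 0.69 ± 0.31 on the log2 scale (FDR = 1.0 by edgeR). Across classes this difference ran from -0.24 in GABAergic-like to 0.80 in endothelial-like nuclei. The fit between classes had no term for the rat, so classes of the same rat were treated as independent. Of 416 such tests of a member between a class and granule-like nuclei, 12 were at an unadjusted p under 0.05 and 0 passed an FDR of 0.05, as for all genes (0%), while from 0.462% to 4.47% of all genes were at that p.

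In granule-like nuclei 2 of 50 members were at an unadjusted p under 0.05, both higher in TBI, against 1.33% of all genes (1.01% higher). Plxna1 was at 20.8 and 18.0 CPM after TBI and at 11.49 (sham) and 10.4 CPM (naïve) in controls, with a log2FC of 0.78 ± 0.27. Sema4g, a transmembrane semaphorin, was at 6.31 and 5.78 CPM after TBI and at 3.01 (sham) and 2.27 CPM (naïve) in controls, with a log2FC of 1.149 ± 0.45. Neither gene overlapped between rats of the 2 groups, and FDR = 1.0 by edgeR for both. They were picked for their p in these rats, and the share of all genes without overlap was not counted. The median log2FC of the members tested was 0.07 in granule-like nuclei and 0.00 over all genes.

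GABAergic-like nuclei had 2 of 45 members at that p, both higher in TBI, against 1.53% of all genes (0.943% higher). Efnb3 was at 64.5 and 41.7 CPM after TBI and at 22.4 (sham) and 30.1 CPM (naïve) in controls, with a log2FC of 0.94. Plxnb2 was at 16.8 and 15.9 CPM after TBI and at 9.05 (sham) and 5.17 CPM (naïve) in controls, with a log2FC of 1.13. Plxnb2 was higher in OPC-like nuclei too, at 33.5 and 37.0 CPM after TBI and at 18.3 (sham) and 13.3 CPM (naïve) in controls (log2FC 1.10, FDR = 0.999 by edgeR). In microglia-like nuclei, its class of highest level at the minimum of 500 UMIs, its log2FC was 0.21 ± 0.34. The difference between these classes was not tested. OPC-like nuclei had 3 of 42 members at that p, all higher, against 2.42% of all genes (1.50% higher), the other two being Slit1 and Plxna3, a partner of neuropilin-2. Plxna3 was at 52.4 and 68.1 CPM after TBI and at 29.3 (sham) and 33.1 CPM (naïve) in controls.

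COP-like nuclei, with 391 nuclei in all, had 5 of 25 members at that p, 4 higher and 1 lower, against 6.05% of all genes (3.48% higher and 2.58% lower). Epha4, Nrp2, Plxna4 and Slit1 were higher, each at no more than 49.4% of the granule-like level. Of 8 granule markers tested in that class 8 were higher as well, 3 of them at that p. The part of granule neuron RNA in these differences was not tested. Sema5b, which is carried by this class, was lower, at 179 and 184 CPM after TBI and at 331 (sham) and 244 CPM (naïve) in controls, with a log2FC of -0.71 ± 0.31 (FDR = 0.809 by edgeR). In endothelial-like nuclei 2 of 26 members were at that p (Plxna4 and Slit1, both higher) against 3.19% of all genes (1.88% higher). These genes were at 29.1% and 33.4% of their granule-like level there, and 8 of 8 granule markers tested were higher in TBI, with a median log2FC of 0.40 and sums of 3411 and 2880 CPM after TBI against 2746 (sham) and 1858 CPM (naïve) in controls. Their part in the result was not tested. Efnb2 and Ephb4 had log2FC of -0.41 and -0.36 there with standard errors of 0.43 and 0.56, on 75 and 44 UMIs. In bulk TBI both had a higher estimate (FDR = 0.204 and 0.513 by edgeR), with overlapping groups for Ephb4. Oligodendrocyte-like (3.12% of all genes), microglia-like (2.43%) and other glutamatergic-like nuclei (0.995%) had no member at that p. Over all nuclei 3 of 58 members were at that p, Ephb2, Plxna1 and Slit1, all higher, against 3.44% of all genes (2.09% higher), and 7 without the naïve rat (3.84% of all genes) or 6 without the sham rat (10.9%).

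The rest of the guidance pathway was read from 58 other genes, of which 56 were in the bulk fit and 2 were at an unadjusted p under 0.05, against 9.60% of all genes. Of 18 netrin, RGM and FLRT system genes, 7 had a higher and 11 a lower estimate in TBI with a median log2FC of -0.12. Rgma, a repulsive cue that binds neogenin, was the only one of them at an unadjusted p under 0.05. It was at 49.7, 59.5 and 55.2 CPM in sham and at 66.3, 67.4 and 69.6 CPM in TBI, without overlap, a log2FC of 0.31 ± 0.10 (FDR = 0.360 by edgeR). Of 35 intracellular effectors measured, 16 had a higher and 19 a lower estimate, with a median of -0.03 and 1 at that p. None of 3 co-receptors and sheddases was at that p, and no gene of the 3 lists passed an FDR of 0.05 by edgeR or by DESeq2.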

How the data were processed

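The members and the gene lists were chosen with earlier results of these data known, and the marker lists also drew on the cluster markers of the study. For bulk RNA the authors deposited estimated counts per transcript and log2 CPM per gene. Gene counts were worked back from the log2 CPM and rounded, and the log2 CPM themselves served as an alternative. The transcript counts were used only for the totals of the libraries. For nuclei the authors deposited UMI counts per gene and barcode, made with Cell Ranger on Rnor_6.0 per the labels, which also name Seurat and DESeq2. Nuclei were kept at 500 UMIs, 300 genes, a log10 genes per UMI of 0.8, at most 5% mitochondrial and 2% ribosomal UMIs. No doublet caller was run. Nuclei were classed by marker scores, and UMIs summed per rat and class, since nuclei of 1 rat are not replicates. Tests were edgeR 4.0.16 quasi-likelihood fits with Benjamini-Hochberg adjustment over all genes in R 4.3.3, tested on simulated data, with DESeq2 1.42.0 and limma 3.58.1 as alternatives. CPM of classes are UMIs per 1000000 of the class. Of 14166 bulk genes 388 had no symbol. Named in bulk were members at an unadjusted p under 0.05 and, per family, the highest CPM and the largest fold change among members of at least 1 CPM, and in nuclei the 3 highest members per class, the highest ratio and members at that p. Genes named beyond this rule were chosen after their values were seen. Depth limits the small classes, and counting intervals cover counting error only. The p-values measure the spread between rats, except those between classes, whose fit had no term for the rat.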

Additional observations from a re-analysis of the deposited data

How the results depend on the processing

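No member of the bulk comparison passed an FDR of 0.05 except by DESeq2, which called 2. At an unadjusted p under 0.05 the 7 members became 3 with the surgery period as covariate and ranged from 3 to 10 with each library left out. Of the other guidance genes, 2 stood at that p, 1 with RLE normalization, 1 with the surgery period, and 0 to 6 with each library left out. In nuclei by class, 0 members passed an FDR of 0.05, against 4 by DESeq2 and 6 without a filter on low counts, all in astrocyte-like nuclei, and 0 to 2 with each rat left out. The 25 at an unadjusted p became 41 without the filter and 20 to 71 with a rat left out, and the 11 in astrocyte-like nuclei became 17 and 7 to 13. Over all nuclei, 0 to 1 member passed the FDR and 2 to 7 the unadjusted p with a rat left out, against 3. With stricter marker cuts all 58 members with a UMI kept their class of highest level. With a minimum of 1000 UMIs per nucleus 53 did. With each library left out, the log2FC in bulk ran from -0.016 (without sham replicate 2) to 0.69 for Efnb3 and from -0.34 to 0.0053 (without TBI replicate 3) for Sema7a. The cause of these changes was not tested. Of 429 alternatives for named genes, 2 reversed direction and 12 passed an FDR of 0.05, which none passed to begin with. Of the 35 named results at an unadjusted p under 0.05, 7 kept it under every alternative run (Efnb2 and Plxnb2 in bulk, and Efnb3, Ephb2, Plxna4, Slit1 and Slit3 in astrocyte-like nuclei) and 28 lost it under at least 1. With 1 rat left out, a lone rat is assumed to vary like those of the other group.

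Same-numbered bulk libraries correlated at 0.40, 0.26 and -0.06 in their deviations from the group means, so the numbers were not taken to pair the rats. With the replicate block 9 members stood at an unadjusted p under 0.05 (11.5% of all genes) and 0 at an FDR of 0.05 (0.431% of all genes), and the block gave 2 other guidance genes at that p. No paired analysis was possible for the nuclei because the groups share only number 1. Groups of 2 or 3 rats and classes of few nuclei limit what could be detected.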
